A study of Mus musculus with 6 samples.

Results

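Laminins are the sheet-forming glycoproteins of basement membranes. Each secreted laminin is a trimer of an α, a β and a γ chain, and the α chain carries most of the binding sites for integrins and dystroglycan on the cell surface. Perlecan, encoded by Hspg2, is a large proteoglycan of the same membranes whose heparan sulfate chains bind growth factors and whose core binds laminin and nidogen. In adipose tissue, basement membranes surround adipocytes and the vessels that run between them.

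The genes examined here were Lama2, Lama4 and Lama5 (α chains), Lamb1 and Lamb2 (β chains), Lamc1 and Lamc3 (γ chains) and Hspg2. They were taken by gene symbol, and 8 of the 31053 genes in the count tables matched. None of them was used to define a cell class.

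The series profiled single cells of the stromal vascular fraction of inguinal white adipose tissue (iWAT) from C57BL/6 mice, after immune (CD45+) cells and dead cells had been sorted out. Young mice were 9 weeks old and aged mice 57 weeks old. All of them were first acclimated to 30 °C, then stayed at thermoneutrality (TN) or moved to 6 °C for 3 days (3D) or 14 days (14D). Each age and temperature gave 1 library, 6 in all, and the study's methods pool mice only where they say so, without stating a number of mice for these libraries. The study obtained C57BL/6 mice from more than one colony, and age and colony cannot be told apart here. Libraries are therefore the units of every test: 3 young against 3 aged libraries with temperature as a term, or 2 libraries per temperature with age as a term.

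Total UMIs (unique molecular identifiers, the counted transcripts) per library ran from 52068837 to 88508349 over 68103 barcodes. The aged 14D library stood apart in depth, with a median of 2588 UMIs per barcode against 6232 to 8954 in the others, and 38.2% of its barcodes held under 2000 UMIs. Of 67565 distinct barcode sequences, 524 occurred in more than 1 library, 30 to 44 for each pair of libraries. Cells were sorted into classes by lists of marker genes, and each class name below stands for cells that resemble that type by its markers. In all, 39879 cells entered a class and 10922 cells of the fibroblast gate were left unassigned. UMIs were summed per library and class and expressed as CPM (UMIs scaled to a common library total with TMM factors). Per library, the sums covered 2113 to 3825 Dpp4+ fibroblasts, 1574 to 2778 Icam1+ preadipocytes, 617 to 885 Cd142+ fibroblasts, 333 to 1056 endothelial cells and 41 to 129 pericytes. Smooth muscle cells (15 to 78) and Schwann cells (10 to 29) fell under 20 cells in at least 1 library and were described only. Immune cells left after the sort (22 to 54) were not among the classes compared.

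The marker lists separated some classes better than others. The 10 Dpp4+ markers summed to 7424 to 10372 CPM in Dpp4+ fibroblasts and to 108 to 557 CPM in Icam1+ preadipocytes, and the 10 endothelial markers summed to 8935 to 10127 CPM in endothelial cells against 9.40 to 19.9 CPM in Dpp4+ fibroblasts. Fibroblast markers such as Dcn and Col1a1 summed to 761 to 1828 CPM in endothelial cells. The 10 Icam1+ markers, which include the lipid-handling genes Fabp4, Cd36 and Lpl, did not mark the class outside the fibroblast gate: they summed to 9305 to 12064 CPM in Icam1+ preadipocytes, 45046 to 64534 in endothelial cells and 20413 to 41498 in pericytes. In Cd142+ fibroblasts they summed to 4087 to 6864 CPM, with the class's own 10 markers at 3815 to 4672 CPM. Assignment within the fibroblast gate was not sharp everywhere: 11.1% to 15.6% of its cells lay within a score difference of 0.2 between the best and the second class and were left out, and a further 17.4% to 22.2% lay between 0.2 and 0.5.

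The members lie on 6 autosomes of the mouse genome (GRCm38, GENCODE vM21). Lama2 spans chr10:26980036-27619758 on the minus strand, 639.7 kb with 65 exons in its longest transcript, and Lama4 lies on the same chromosome at chr10:38965515-39110188 (plus strand). Lama5 lies at chr2:180176373-180225859 (minus) and Lamc3 at chr2:31887291-31946539 (plus). The β chain genes are Lamb1 at chr12:31265234-31329644 and Lamb2 at chr9:108479736-108490530, both on the plus strand with 33 exons. Lamb2 is 10.8 kb long and Lamb1 64.4 kb. Lamc1 lies at chr1:153218922-153332786 (minus) and Hspg2, with 97 exons, at chr4:137468769-137570630 (plus). The genes annotated within these spans on the same strand as a member were of non-coding or unclassified type.

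The β chain genes and Hspg2 gave large differences between the fibroblast classes, with Lamb1 and Lamb2 in opposite directions, so the sequences that precede their starts are shown. They come from RefSeq promoter windows (GRCm38.p6), in which 5 of the 8 members were found, and stop before the first start annotated in GENCODE. Capitals mark a GC box, spelled GGGCGG, and the CCAAT box. Each was searched for on both strands, so the box also stands in capitals where it reads as its reverse complement. The TATA box, spelled TATAAA and searched in the same way, had no match in these windows, and matches of different motifs did not overlap.
Lamb1, chr12:31265043-31265233, plus strand: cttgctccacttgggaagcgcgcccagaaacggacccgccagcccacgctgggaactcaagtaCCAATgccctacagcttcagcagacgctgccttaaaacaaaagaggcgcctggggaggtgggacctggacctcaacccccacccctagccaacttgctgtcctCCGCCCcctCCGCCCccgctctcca
Lamb2, chr9:108479612-108479735, plus strand: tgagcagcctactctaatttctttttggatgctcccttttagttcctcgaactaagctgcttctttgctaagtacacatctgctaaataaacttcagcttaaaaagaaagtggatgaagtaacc
Hspg2, chr4:137468553-137468768, plus strand: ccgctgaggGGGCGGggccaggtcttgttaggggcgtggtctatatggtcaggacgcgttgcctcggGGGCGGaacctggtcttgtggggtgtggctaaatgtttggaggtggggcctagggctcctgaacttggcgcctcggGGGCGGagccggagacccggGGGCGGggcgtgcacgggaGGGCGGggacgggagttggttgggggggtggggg

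The whole windows are 250 bases long. Those of Lamb1 and Hspg2 were 62.0% and 70.0% G and C, with 2 and 5 GC boxes, while that of Lamb2 was 43.6% G and C with none of these motifs. Over 32851 windows of the same length, 32.7% held a GC box, 12.4% TATAAA and 33.8% CCAAT, and the median G and C content was 52.4%. A match here is a description of the letters only.

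The first question was which cells of iWAT carried each chain. Classes were normalised separately, so levels set across classes are descriptions unless a joint fit is named. UMIs at the 3′ end do not allow levels of different genes to be compared.

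**Figure D1:**
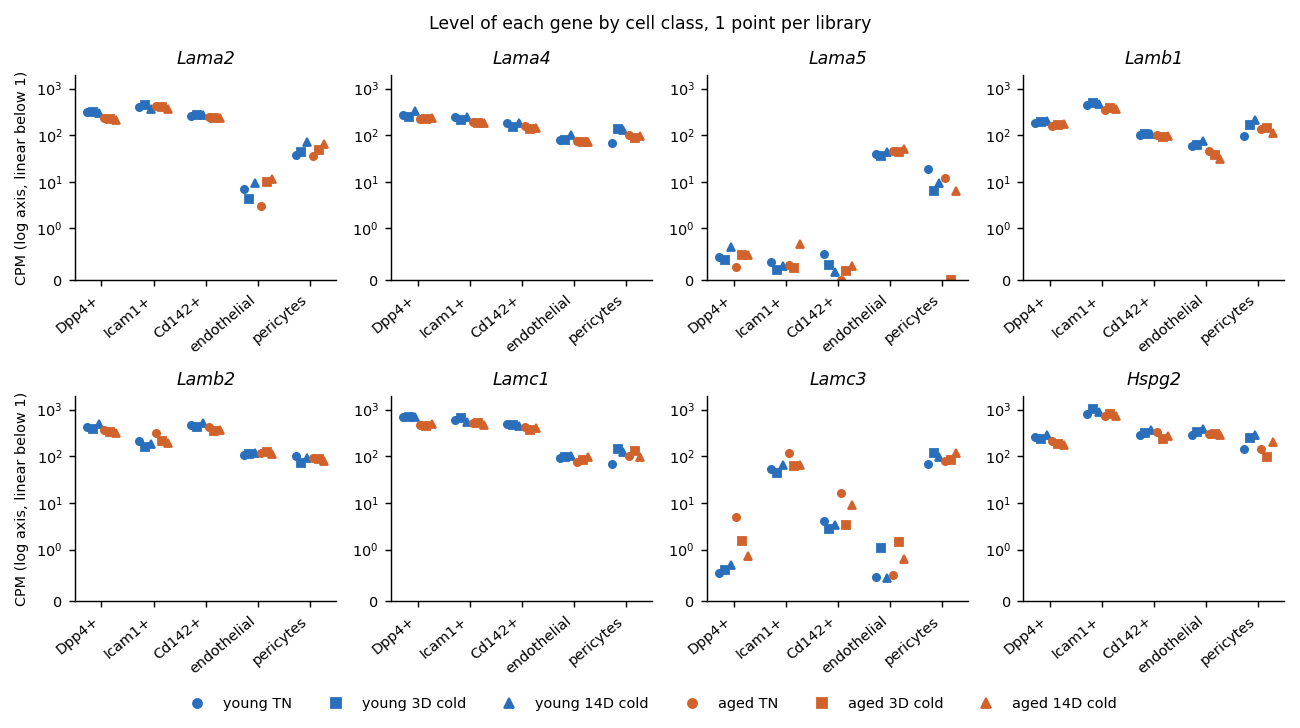
CPM of each member (vertical axis, logarithmic and linear below 1) in each of 5 cell classes (horizontal axis), 1 point per library with young and aged libraries marked. Lama5 stands at 35.8 to 50.5 CPM in endothelial cells and below 1 CPM in all 3 fibroblast classes, while Lama2 shows the opposite order.

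Among the α chains, Lama2, the α chain of muscle and nerve basement membranes whose loss causes a congenital muscular dystrophy, was a fibroblast transcript. It averaged 400.0 ± 30.4 CPM (SD, n = 6 libraries) in Icam1+ preadipocytes, 266 ± 48.3 in Dpp4+ and 252 ± 15.2 in Cd142+ fibroblasts. The last 2 classes overlapped, and every Icam1+ library lay above every library of both. Endothelial cells held 7.52 ± 3.33 CPM of Lama2, with every library under every fibroblast library.

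Lama4, the α chain of vessel and adipocyte basement membranes, had a flatter pattern. Its mean was 254 ± 39.2 CPM in the Dpp4+ class, 211 ± 32.7 in the Icam1+ class and 159 ± 19.8 in the Cd142+ class (SD, n = 6), and neighbours in that order overlapped. The lowest Cd142+ library lay above the highest pericyte library, and pericytes ran from 66.8 to 135 CPM. Endothelial cells averaged 79.2 ± 10.4 CPM.

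Lama5, an α chain of endothelial and epithelial membranes, was a transcript of vessel-wall cells. It averaged 99.8 ± 17.3 CPM in smooth muscle cells and 43.2 ± 5.08 CPM in endothelial cells, and the ranges of these classes did not overlap. In the fibroblast classes its means were 0.239 to 0.452 CPM, resting on 8 to 65 UMIs over all libraries. After each cell was thinned to 2000 UMIs, 6.67% to 9.31% of endothelial cells held a Lama5 UMI, and at most 0.324% of the cells of any fibroblast class in any library did.

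The β chains split the fibroblast classes. Lamb1, the β chain found early in many basement membranes, averaged 421 ± 57.6 CPM in Icam1+ preadipocytes, 177 ± 16.5 in Dpp4+ and 100.3 ± 6.59 in Cd142+ fibroblasts, with no overlap between the 3. Lamb2, the β chain of neuromuscular and glomerular membranes, had the reverse order at 211 ± 51.7, 387 ± 68.9 and 425 ± 62.5 CPM. Its Dpp4+ and Cd142+ libraries overlapped, and its highest Icam1+ library (309.5 CPM) reached the lowest Dpp4+ library (309 CPM). Endothelial cells held 51.9 ± 17.0 CPM of Lamb1 and 115 ± 5.91 CPM of Lamb2.

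Of the γ chains, Lamc1, the γ chain of most laminin trimers, was high in all fibroblasts, at 582 ± 125 CPM in the Dpp4+ class, 552 ± 69.3 in the Icam1+ class and 431 ± 45.9 in the Cd142+ class, with overlap between neighbours. The vessel and nerve classes averaged 91.0 to 126 CPM.

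Lamc3, a γ chain of restricted distribution, was found mainly in pericytes and Icam1+ preadipocytes. These classes averaged 92.4 ± 20.6 and 67.7 ± 25.3 CPM and overlapped. Next came smooth muscle cells at 24.6 ± 11.7 CPM, Cd142+ fibroblasts at 6.52 ± 5.47, Dpp4+ fibroblasts at 1.55 ± 1.73 and endothelial cells at 0.797 ± 0.408, where the endothelial value rested on 10 UMIs. Thinned to 2000 UMIs, 8.51% to 29.3% of pericytes and 7.72% to 20.7% of Icam1+ preadipocytes held a Lamc3 UMI, against at most 0.567% of endothelial cells. Schwann cells held 0 Lamc3 UMIs in every library, in 10 to 29 cells each, which gives little power to detect it.

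Hspg2 was present in all 7 of these classes. Icam1+ preadipocytes led at 837 ± 125 CPM, followed by Schwann cells at 552 ± 291, endothelial cells at 316 ± 34.0, Cd142+ fibroblasts at 304 ± 43.8, Dpp4+ fibroblasts at 224 ± 43.6, pericytes at 188 ± 73.3 and smooth muscle cells at 91.7 ± 30.0. Each neighbour in this order overlapped with the next.

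Pericytes held 50.5 ± 15.01 CPM of Lama2 and 143 ± 41.4 CPM of Lamb1, with 87.2 ± 10.3 CPM of Lamb2 and, from 9 young and 6 aged UMIs, 8.86 ± 6.40 CPM of Lama5. Smooth muscle cells held 219 ± 56.8 CPM of Lamb2, 50.5 ± 24.2 of Lama4, 37.4 ± 15.6 of Lamb1 and 27.2 ± 44.7 of Lama2, where the highest Lama2 library stood at 116 CPM. Schwann cells held 147 ± 59.7 CPM of Lamb1, 82.8 ± 22.4 of Lama4, 72.9 ± 56.2 of Lama2, 35.3 ± 20.3 of Lamb2 and 15.1 ± 25.1 of Lama5. In immune cells Lamc1 averaged 21.9 ± 9.89 CPM and the other 7 members 0.687 to 10.6 CPM.

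The fibroblast classes were then compared within libraries, in a joint edgeR fit of both classes with the library as a block (12 sums, quasi-likelihood F test, Benjamini-Hochberg adjustment over all genes tested). Between Icam1+ preadipocytes and Dpp4+ fibroblasts, 6 of 8 members passed an adjusted p of 0.05, where 68.7% of all 13588 genes did (33.7% higher and 34.9% lower). The members' count was thus near the background, and the directions carry the description. Hspg2 was 3.94-fold higher (log2 1.98, adjusted p = 3.79e-08), Lamb1 2.47-fold higher (adjusted p = 1.2e-08) and Lama2 1.59-fold higher (adjusted p = 0.000136) in Icam1+ preadipocytes. Lamc3 differed most, by 52.7-fold, from 182 UMIs in Dpp4+ and 7823 in Icam1+ cells (adjusted p = 1.65e-08). Lamb2 was lower in Icam1+ cells (log2 difference -0.82, adjusted p = 0.000526), and Lama4 by a smaller amount (-0.20, adjusted p = 0.0034), a call that was lost without the library block (adjusted p = 0.142). Lamc1 (log2 0.00, adjusted p = 0.968) and Lama5 (-0.46, adjusted p = 0.194) did not pass.

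Cd142+ fibroblasts differed from Dpp4+ fibroblasts in 6 of the 7 members tested, against 55.1% of all genes (28.1% higher and 26.9% lower). Lamc3 was 4.63-fold, Hspg2 1.43-fold and Lamb2 1.16-fold higher in Cd142+ cells. Lamb1 (-0.75), Lama4 (-0.61) and Lamc1 (-0.35 on the log2 scale) were lower. The Lamb2 call was lost without the library block (adjusted p = 0.172), and Lama2 did not differ detectably (log2 0.00, adjusted p = 0.985). Icam1+ preadipocytes differed from Cd142+ fibroblasts in all 7 members tested, against 44.6% of all genes (22.3% in each direction). Lamb2 was lower in Icam1+ cells (-1.02), and the other 6 were higher, among them Lamc3 (11.4-fold), Lamb1 (4.22-fold) and Hspg2 (2.78-fold).

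The second question was whether the chains differed with age. In Dpp4+ fibroblasts, the class described as the stem-like progenitors of the depot, 6 members fell and 1 rose in aged libraries. These 7 of 8 members called compare with 15.5% of the 13053 genes tested in this class, and among all genes 7.82% fell and 7.67% rose. The median log2 change of the 8 members was -0.35, against 0.00 over all genes. For 7 of the 8 members the young and aged libraries did not overlap, as for 23.2% of all genes tested.

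**Figure D2:**
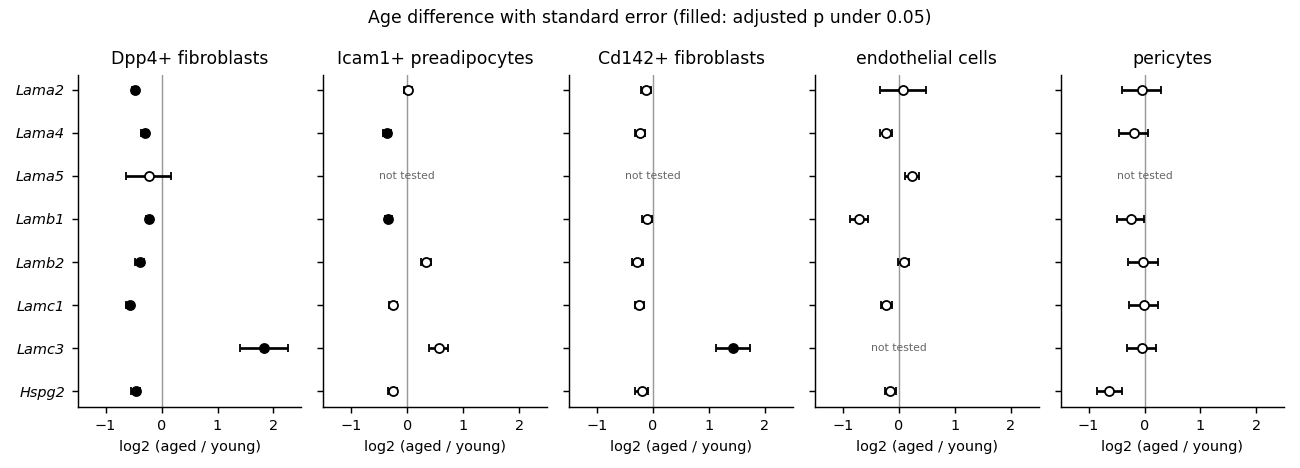
Log2 ratio of aged over young libraries (horizontal axis) for each member in 5 cell classes, with the standard error as a bar and filled points where the adjusted p was under 0.05. In Dpp4+ fibroblasts the 6 filled points left of 0 run from -0.57 (Lamc1) to -0.22 (Lamb1), and Lamc3 lies at 1.84.

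Lamc1 fell most among the 6. It stood at 695 (TN), 683 (3D) and 710.1 (14D) CPM in young and at 473, 448 and 485 CPM in aged Dpp4+ fibroblasts. All 3 aged libraries lay far below all 3 young ones, and temperature moved neither set by as much. The mean dropped from 696 ± 13.6 to 469 ± 19.1 CPM (SD, n = 3), a fitted change of -32.7% (log2 -0.57, SE 0.0572, adjusted p = 9.81e-05).

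Lama2 read 312, 309.8 and 307 CPM in the young TN, 3D and 14D libraries and 229, 227 and 211 CPM in the aged ones. The young values were nearly equal, and the aged set lay wholly below them. The fitted change was -28.3% (log2 -0.48, SE 0.0546, adjusted p = 0.000216).

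Hspg2 stood at 254, 237 and 285 CPM in young and 211, 179 and 174 CPM in aged Dpp4+ fibroblasts. The groups did not overlap, and the gap between ages was smallest at TN. The fitted change was -27.3% (log2 -0.46, SE 0.0779, adjusted p = 0.00277).

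Lamb2 gave 432, 391 and 497 CPM in young and 360.4, 334 and 309 CPM in aged libraries. Every aged library was lower, and the 14D pair was furthest apart (log2 -0.68, against -0.26 at TN and -0.23 at 3D). Across temperatures the fitted change was -23.8% (log2 -0.39, SE 0.0832, adjusted p = 0.0104).

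Lama4 and Lamb1 changed less. Lama4 read 277, 246 and 323 CPM in young and 220.0, 223 and 238 CPM in aged libraries, a fitted change of -19.0% (SE 0.0644 on the log2 scale, adjusted p = 0.0103). Its highest aged library lay just under its lowest young one. Lamb1 read 183, 187 and 202 CPM in young and 157, 164 and 170.1 CPM in aged libraries, a fitted change of -14.1% (adjusted p = 0.0178). The Lamb1 call is the weakest of the 6: it was lost without the young TN (adjusted p = 0.054), young 3D (0.103), aged TN (0.0597) or aged 3D (0.105) library, although the log2 change stayed at -0.22 in each of these fits. This call was also lost after cells were thinned to 2000 UMIs (log2 -0.20, adjusted p = 0.0584). In any age fit, leaving out either library of a temperature takes that temperature out of the age estimate. The young and the aged removal are therefore not separate checks.

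Lamc3 went the other way from a low level. Young Dpp4+ fibroblasts held 16, 17 and 20 Lamc3 UMIs (0.555, 0.608 and 0.704 CPM) and aged ones 80, 35 and 14 UMIs (5.0, 1.55 and 0.870 CPM) at TN, 3D and 14D. The aged TN library alone was far above the rest, and the aged 14D library was close to the young ones. The fit gave a log2 change of 1.84 (SE 0.425, adjusted p = 0.0157), which fell to 0.88 without the aged TN library (adjusted p = 0.175), to 0.89 without the young TN library (adjusted p = 0.132) and to 0.84 without the barcodes of highest UMI count (adjusted p = 0.205). Icam1+ markers summed to 1127, 894 and 749 CPM in the aged and 937, 909 and 747 CPM in the young Dpp4+ sums, highest in that same aged TN library; their part in the Lamc3 result was not tested.

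Other transcripts of this class moved with age too. The 10 general fibroblast markers, which include collagen genes, summed to 51039 to 56241 CPM in young and 37876 to 44373 CPM in aged Dpp4+ fibroblasts, and the 10 Dpp4+ markers to 9106 to 10372 and 7424 to 8247 CPM, with all 10 markers of each list detected in every library. Their part in the results above was not tested. Lama2, Lamc1 and Hspg2 stayed past the threshold in all 15 alternative fits, with each library left out in turn among them.

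**Figure D3:**
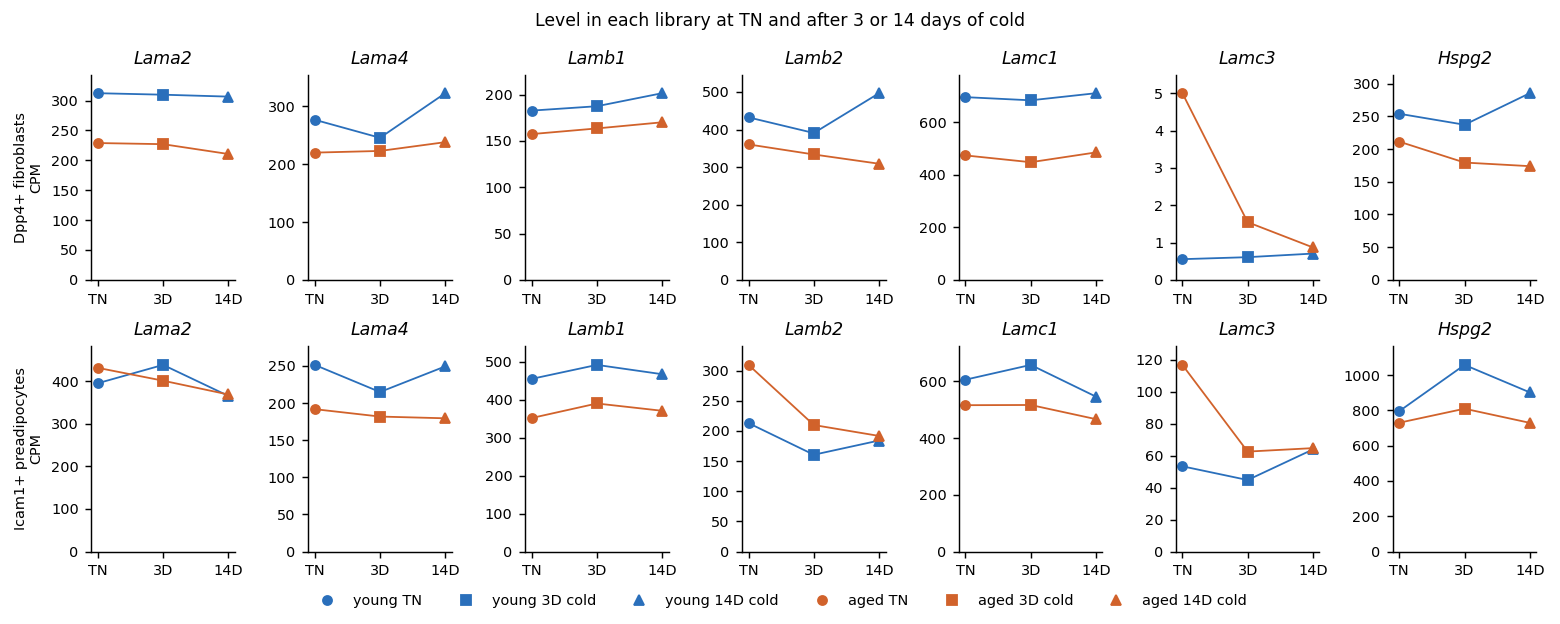
CPM of 7 members (columns) in Dpp4+ fibroblasts (top row) and Icam1+ preadipocytes (bottom row) at TN, 3D and 14D (horizontal axis), with 1 line for young and 1 for aged libraries. In Dpp4+ fibroblasts the aged line lies below the young line at every temperature for 6 members, while for Lama2 in Icam1+ preadipocytes the lines cross.

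In Icam1+ preadipocytes, the committed precursors of adipocytes, 2 of 7 members tested fell with age and none rose, where 9.87% of all genes were called (5.35% higher and 4.52% lower). Lama4 read 251, 215 and 249 CPM in young (TN, 3D, 14D) and 192, 182 and 179 CPM in aged libraries, without overlap, a fitted change of -22.0% (SE 0.0686 on the log2 scale, adjusted p = 0.0173). Lamb1 read 455, 492 and 467 CPM in young and 352, 390.3 and 371 CPM in aged libraries, again without overlap, a change of -20.8% (SE 0.0662, adjusted p = 0.0195). Both calls depended on single temperatures, since leaving out either library of a temperature takes that temperature out of the age estimate. Lama4 was lost without young 3D (adjusted p = 0.0731), young 14D (0.0737), aged 3D (0.0542) or aged 14D (0.0518), and Lamb1 without young 3D (0.136), young 14D (0.061) or aged 3D (0.116). In these fits the log2 change stayed between -0.42 and -0.31 for Lama4 and between -0.35 and -0.33 for Lamb1. In the same sums, general fibroblast markers ran from 96789 to 102472 CPM in young and 82649 to 96093 CPM in aged libraries, Icam1+ markers from 9305 to 10100 and 11389 to 12064 CPM, and Cd142+ markers from 1003 to 1255 and 1258 to 1774 CPM. None of these 3 lists, each with all 10 markers detected, overlapped between the ages, and their part in the results of this class was not tested.

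The other members of this class did not pass. Lama2, which fell in Dpp4+ fibroblasts, read 395, 438 and 365 CPM in young and 431, 401 and 369 CPM in aged Icam1+ preadipocytes, and the groups overlapped fully (log2 0.01, SE 0.0767, adjusted p = 0.942). Lamc1 had a log2 change of -0.26 (adjusted p = 0.0612) and Hspg2 of -0.26 (adjusted p = 0.0862). Lamb2 read 213, 161 and 184 CPM in young and 309.5, 209.8 and 192 CPM in aged libraries, and was higher in the aged library at each temperature (log2 0.34, adjusted p = 0.0577). Lamb2 passed in DESeq2 (adjusted p = 0.0389) and, in edgeR, with no filter on low counts (0.0199) and after thinning (0.0103). It also passed with the stricter gate (0.0492) and without the barcodes of highest UMI count (0.0111). Further, it passed without the young 14D (0.46, adjusted p = 0.019) or aged 14D library (0.47, adjusted p = 0.00714). The remaining alternatives did not call it.

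Lamc3 in Icam1+ preadipocytes followed the same shape. It stood at 53.3, 44.7 and 63.9 CPM in young and 117, 62.5 and 64.7 CPM in aged libraries, so only the aged TN library was far above the others. The log2 change was 0.56 (SE 0.172, adjusted p = 0.0818), and 0.82 without the aged 14D library (adjusted p = 0.00211) or 0.81 without the young 14D library (adjusted p = 0.0106). In edgeR it also passed with no filter on low counts (0.00785), after thinning (0.0482) and without the barcodes of highest UMI count (0.0465). The remaining alternatives did not call it. The share of Icam1+ preadipocytes with a Lamc3 UMI after thinning was 20.7% at aged TN (exact 95% interval 19.0% to 22.4%) and 9.25% at young TN (8.02% to 10.6%). Before thinning the young TN share was 28.5%, and these intervals cover counting error only.

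Cd142+ fibroblasts gave 1 of 7 members past the threshold, where 8.17% of genes were called (4.29% higher and 3.88% lower). Lamc3 read 4.07, 2.74 and 3.30 CPM in young and 16.7, 3.43 and 8.89 CPM in aged libraries, from 62 and 128 UMIs in all, and the groups overlapped. Its log2 change was 1.42 (SE 0.303, adjusted p = 0.0133), and the call was lost in DESeq2 (adjusted p = 0.111) and without the young 14D (0.102), aged TN (0.0902) or aged 14D library (0.15). Icam1+ markers summed to 4814, 4679 and 4087 CPM in young and 6864, 5156 and 4175 CPM in aged Cd142+ sums, again highest at aged TN, and general fibroblast markers to 92715 to 99936 CPM in young and 68252 to 81557 CPM in aged sums; their part in the results of this class was not tested. Of the members that did not pass, Hspg2 changed most with the libraries: its log2 change of -0.20 (adjusted p = 0.35) became -0.41 without the young TN library (adjusted p = 0.000489) and -0.40 without the aged TN library (adjusted p = 0.000728). Lamb2 (adjusted p = 0.00193 and 0.00245) and Lamc1 (0.0415 and 0.0481) also passed without those libraries.

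In endothelial cells 0 of 7 members tested passed in edgeR (1.25% of all genes did, 0.559% higher and 0.687% lower), 2 had an unadjusted p under 0.05, and DESeq2 called 0. Lamb1 came closest. It read 58.2, 61.5 and 76.8 CPM in young and 46.7, 38.1 and 30.2 CPM in aged endothelial cells, without overlap, and the distance between the ages was smallest at TN and largest at 14D. These values rest on 408 young and 299 aged Lamb1 UMIs, 37 of them at aged 14D. The fitted change was -38.8% (log2 -0.71, SE 0.16, adjusted p = 0.0517). It passed without the young TN (-0.97, adjusted p = 0.0109), young 3D (adjusted p = 0.0043), aged TN (-0.97, adjusted p = 0.0182) or aged 3D (adjusted p = 0.00359) library. Lama5 read 40.1, 35.8 and 43.0 CPM in young and 46.5, 43.5 and 50.5 CPM in aged endothelial cells, a small separation that did not pass (log2 0.24, adjusted p = 0.427). Red blood cell markers reached 3629 CPM in the young 3D and 2495 CPM in the aged TN endothelial sum. Markers of 3 other lists were lower in aged than in young endothelial sums without overlap: lymphatic endothelial (327 to 408 CPM young, 90.1 to 235 aged), smooth muscle (178 to 215, 123 to 170) and Dpp4+ markers (567 to 651, 455 to 563). Their part in these values was not tested.

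Pericytes, the mural cells of small vessels, gave 0 of 7 members past the threshold in edgeR, where 1.66% of genes passed (1.3% higher and 0.354% lower). There, 1 member had an unadjusted p under 0.05. DESeq2 called 0, but it gave an adjusted p to only 2 of the 7 members. Hspg2 read 143, 251 and 288 CPM in young and 144, 95.8 and 207 CPM in aged pericytes (log2 -0.63, SE 0.224, adjusted p = 0.149). These sums rest on 201 and 121 Hspg2 UMIs. Lamc3 was nearly equal between the ages in these cells, at 92.7 ± 24.8 CPM in young and 92.2 ± 21.0 CPM in aged libraries (adjusted p = 0.987). Smooth muscle markers summed to 3251 to 6117 CPM in the pericyte sums. Endothelial markers (565 to 723 CPM young, 450 to 511 aged) and general fibroblast markers (5036 to 5460, 3782 to 4710) were lower in the aged pericyte sums without overlap, and their part in these values was not tested.

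Smooth muscle and Schwann cells were too few for a test. Lamc3 in smooth muscle cells rested on 6 young and 20 aged UMIs (10.9 to 17.7 and 27.7 to 40.7 CPM). Hspg2 in Schwann cells read 875, 753 and 769 CPM in young and 483, 203 and 229 CPM in aged libraries, from 124 and 61 UMIs. The ages did not overlap in either case. Lamc1 in Schwann cells also separated (119 to 128 CPM young, 0 to 116 CPM aged), from 19 and 14 UMIs. The other members overlapped in both classes. These cases were picked from all members in both classes because they separated. With 3 libraries per age, some separations of this kind arise by chance, and no share over all genes is given here. They are descriptions only. General fibroblast markers summed to 6944 to 9845 CPM in young and 5858 to 6116 CPM in aged Schwann sums, without overlap. In smooth muscle sums these markers ran from 3098 to 6117 CPM in young and from 2889 to 6603 CPM in aged libraries. The part of these markers in the values above was not tested.

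Whether the age difference itself differed between classes was tested as an interaction in the joint fits. Against Dpp4+ fibroblasts, Icam1+ preadipocytes differed in 2 of 8 members, where 1.35% of genes passed (0.913% above 0 and 0.442% below). Lama2 had an interaction of 0.50 on the log2 scale (SE 0.0921, adjusted p = 0.0343) and Lamb2 of 0.74 (SE 0.144, adjusted p = 0.0437), both meaning a less negative or more positive age change in Icam1+ preadipocytes. DESeq2 also called 2. Each call was lost when any library but aged TN was left out: the adjusted p for Lama2 was then 0.0974 (young TN), 0.0542 (young 3D), 0.173 (young 14D), 0.113 (aged 3D) and 0.093 (aged 14D), and for Lamb2 0.0532, 0.129, 0.206, 0.0863 and 0.077 in the same order. The interaction itself stayed between 0.43 and 0.54 for Lama2 and between 0.63 and 0.85 for Lamb2 in those fits.

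Between Cd142+ and Dpp4+ fibroblasts, 1 of 7 members passed (1.4% of genes, 0.687% above 0 and 0.71% below). It was Lama2, whose log2 change was -0.13 in Cd142+ and -0.48 in Dpp4+ fibroblasts (interaction 0.36, SE 0.0824, adjusted p = 0.0449). This call was lost in DESeq2 (adjusted p = 0.163) and without the young TN (0.155), young 3D (0.118), young 14D (0.125), aged 3D (0.132) or aged 14D library (0.153). Between Icam1+ preadipocytes and Cd142+ fibroblasts, 1 of 7 passed (1.05% of genes, 0.673% above 0 and 0.373% below), and this was Lamb2 (0.64, SE 0.117, adjusted p = 0.0165). It was lost without the young 3D (0.61, adjusted p = 0.0619) or young 14D library (0.55, adjusted p = 0.132). For Lamc3, whose age change passed in Dpp4+ and Cd142+ but not in Icam1+ cells, neither interaction with Icam1+ preadipocytes passed (adjusted p = 0.149 and 0.294).

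The balance of the β chains was read as Lamb2 UMIs per 100 Lamb1 UMIs within each sum, a measure that needs no scaling between libraries and is compared between sums only.

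**Figure D4:**
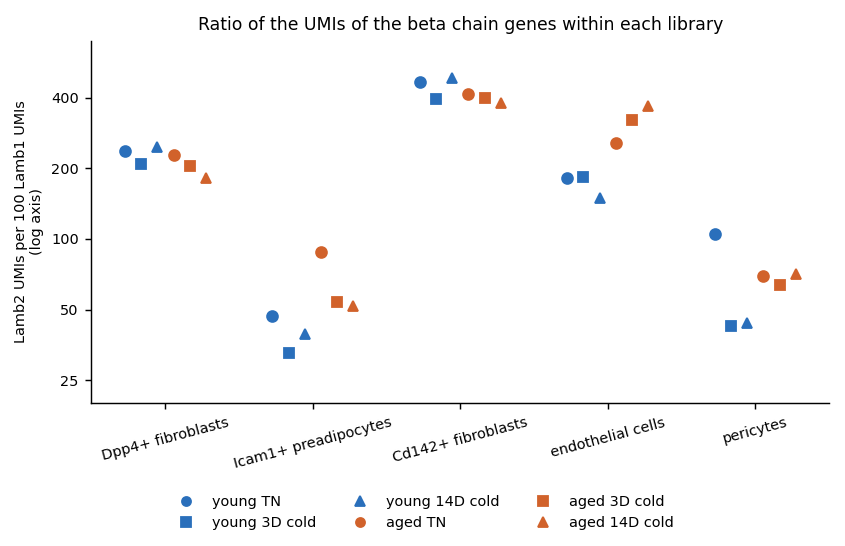
Lamb2 UMIs per 100 Lamb1 UMIs (vertical axis, logarithmic) in 5 cell classes (horizontal axis), 1 point per library with young and aged libraries marked. Young and aged libraries do not overlap in Icam1+ preadipocytes and in endothelial cells, and in both the aged libraries are higher.

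In endothelial cells the ratio was 182, 183 and 150 in young and 256, 321 and 370.3 in aged libraries (TN, 3D, 14D), or 172 ± 18.8 and 316 ± 57.3 (SD, n = 3). The Lamb1 counts below it were small, at 125, 115 and 168 UMIs in young and 184, 78 and 37 UMIs in aged libraries. In Icam1+ preadipocytes the ratio was 46.8, 32.6 and 39.4 in young and 87.9, 53.8 and 51.7 in aged libraries. The ages did not overlap in these classes, and each gave an exact two-sided permutation p of 0.1, the smallest that 3 against 3 allows. In Dpp4+ fibroblasts (230.4 ± 19.7 and 205 ± 23.7, exact permutation p = 0.2), Cd142+ fibroblasts (449 ± 47.6 and 397 ± 18.5, p = 0.3) and pericytes (p = 1) the ages overlapped. The ratio of the α chains, as Lama4 UMIs per 100 Lama2 UMIs, was lower in aged Icam1+ preadipocytes without overlap (60.3 ± 10.0 and 46.1 ± 2.22, exact permutation p = 0.1) and overlapped in Dpp4+ fibroblasts (91.0 ± 13.2 and 102 ± 9.24, p = 0.3), Cd142+ fibroblasts (p = 0.4) and pericytes (p = 0.7). None of these 9 ratios could reach 0.05.

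The third question was whether cold moved the chains. With both cold terms tested together in edgeR, 0 of 8 members passed in Dpp4+ fibroblasts (7.32% of genes), 0 of 7 in Icam1+ preadipocytes (3.08%), 0 of 7 in Cd142+ fibroblasts (1.5%) and 0 of 7 in endothelial cells (0.549%). At an unadjusted p under 0.05 there were 2, 1, 1 and 0 members. DESeq2 gave an adjusted p to only 6 of 8 members in Dpp4+ fibroblasts and to 1 of 7 in endothelial cells. It called 1 member, in Icam1+ preadipocytes. That member was Lamb2, which stood at its highest at TN in both ages of Icam1+ preadipocytes (213 and 309.5 CPM) and lower at 3D and 14D (161 to 209.8 CPM). Its log2 change was -0.50 at 3D and -0.45 at 14D (adjusted p = 0.0705), and it passed in DESeq2 (adjusted p = 0.00989). In edgeR it passed with no filter on low counts (0.008), after thinning (0.0143) and without the barcodes of highest UMI count (0.0303). Without the young TN, young 14D or aged 14D library its 14D change was -0.60, -0.64 and -0.26. Lamc3 had larger fitted changes that did not pass. They were -1.13 at 3D and -1.37 at 14D in Dpp4+ fibroblasts (adjusted p = 0.177), -0.62 and -0.30 in Icam1+ preadipocytes (0.23) and -1.59 and -0.70 in Cd142+ fibroblasts (0.121). Lamc3 passed without the young TN library in all 3 classes (adjusted p = 0.00598, 0.00859 and 9.54e-06), without young 14D in Dpp4+ fibroblasts (0.0289) and without aged 14D in Icam1+ preadipocytes (0.0197), where its 14D change turned to 0.08. Without the aged TN library its 14D change was 0.07, 0.15 and -0.02 in these classes, and it passed in none of them. With 2 libraries per temperature, a p above the threshold does not show that cold left these genes as they were.

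Some laminin chains outside the 8 were also read. Lamb3, a β chain of the laminin of epithelial attachment sites, was detected in Dpp4+ fibroblasts and fell with age. It went from 5.08 ± 0.741 to 1.15 ± 0.273 CPM (SD, n = 3, log2 -2.16, adjusted p = 1.79e-05). Lama3, its usual α partner, was nearly missing from Dpp4+ fibroblasts, with 4 UMIs over 6 libraries, and ran from 5.88 to 14.5 CPM in endothelial cells. Lama1 gave 0 UMIs in Dpp4+ fibroblasts.

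Partners of laminin in the basement membrane were read beside the chains. The shares of all genes called with age were 15.5% in Dpp4+, 9.87% in Icam1+, 8.17% in Cd142+, 1.25% in endothelial and 1.66% in pericyte sums. Of 9 partner genes, 3 fell and 1 rose with age in Dpp4+ fibroblasts. Sparc, a collagen-binding matrix protein, fell by 1.72 on the log2 scale, Nid1 and Nid2, the nidogens that link laminin to collagen IV, fell by 0.58 and 0.37, and Ntn4, a netrin that binds laminin γ chains, rose (0.27). In Icam1+ preadipocytes 2 of 9 fell, Col15a1 by 0.56 and Sparc by 0.50. In Cd142+ fibroblasts Sparc fell by 1.38 and Col15a1 by 0.84, while Ntn4 rose (0.68). Endothelial cells had 4 of 9 lower, with Col4a1 (-0.50) and Col4a2 (-0.51), the main collagen IV chains, Col15a1 (-0.94) and Sparc (-0.58). In pericytes 3 of the 7 tested fell, again Col4a1 (-0.77), Col4a2 (-0.76) and Sparc (-0.72). The median of the 9 in Dpp4+ fibroblasts was 0.14, above that of all genes. DESeq2 called 3, 2, 1, 3 and 2 partners with age in Dpp4+, Icam1+, Cd142+, endothelial and pericyte sums, where edgeR called 4, 2, 3, 4 and 3. In pericytes DESeq2 gave an adjusted p to 5 of the 7 partners tested.

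Of 8 laminin receptor genes tested in Dpp4+ fibroblasts, 2 fell with age, the integrin subunits Itga2 (-0.70) and Itgb1 (-0.20). Of all genes in this class 15.5% were called. By edgeR 0 of 8, 8, 7 and 5 passed in Icam1+ preadipocytes, Cd142+ fibroblasts, endothelial cells and pericytes, where 9.87%, 8.17%, 1.25% and 1.66% of all genes did. In these 4 classes 1, 0, 0 and 1 receptor genes had an unadjusted p under 0.05, and DESeq2 called 0. Among the dystrophin and sarcoglycan genes, which join dystroglycan to the cytoskeleton, Dmd (-0.29) and Sspn (-0.27) were among those that fell in Dpp4+ fibroblasts, and Dtna rose (0.39). In Icam1+ preadipocytes Sgcd rose (1.27) and was the only one of 8 to pass. Of the 12 genes that build the laminin-binding sugar of dystroglycan, 1 fell in Dpp4+ fibroblasts (Rxylt1, -0.21) and 1 in Icam1+ preadipocytes (Pomgnt1, -0.39).

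For heparan sulfate, the sugar chain that perlecan carries, 4 of 15 genes tested fell with age in Dpp4+ fibroblasts and none rose. Among all genes of that class 7.82% fell and 7.67% rose. The 4 were Xylt1 (-0.36) and B4galt7 (-0.58), which start the chain, Glce (-0.31), which modifies it, and Sulf1 (-0.23), a sulfatase that trims it outside the cell. In Icam1+ preadipocytes Ext1 (-0.28), a chain-extending enzyme, and Sulf1 (-0.48) fell out of 15, where 4.52% of all genes fell. By edgeR 0 of 15 passed in Cd142+ fibroblasts (8.17% of all genes) and in endothelial cells (1.25%). There, 1 gene in each had an unadjusted p under 0.05 and DESeq2 called 0. DESeq2 called fewer of these genes in Dpp4+ fibroblasts too, with 1 of 8 receptor genes, 2 of 8 dystrophin and sarcoglycan genes, 0 of 12 dystroglycan sugar genes and 1 of 15 heparan sulfate genes. In Icam1+ preadipocytes it called 0 of the 12 dystroglycan sugar genes and 1 of the 15 heparan sulfate genes.

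Cold passed for some of these genes, unlike for the 8. In Dpp4+ fibroblasts 4 of 9 partners passed, where 7.32% of all genes did: Nid2 (log2 -0.47 at 3D and -0.55 at 14D), Col4a1 (-0.49 and -0.48), Col18a1 (-0.85 and -0.48) and Sparc (-0.88 and -0.14). In endothelial cells, where 0.549% of all genes passed, Col4a1 (-0.14 and 0.49), Col4a2 (-0.06 and 0.50) and Sparc (0.08 and 0.64) did, with the larger change at 14D. Whether these genes differed from the 8 in their response to cold was not tested.

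Across 30 sums of the 5 larger classes, the genes whose log2 CPM ran most like each member were listed, among 6120 genes with a mean of at least 20 CPM. For Lama4 they were Calu (Pearson r = 0.981), Lamc1 (0.973) and Dsel (0.971), and for Lamc1 Zbtb20 (0.987), Calu (0.983) and Txndc5 (0.979). For Lama2 they were Atf5 (0.985), Lrp1 (0.982) and Col5a1 (0.981), and for Lamb2 Epha3 (0.97), Fth1 (0.965) and C3 (0.961). Lamc3 ran most like Airn (0.95), Trabd2b (0.934) and Heyl (0.933), and Lama5 like Ssu72 (0.926), Tmcc3 (0.915) and 8430408G22Rik (0.914). The best match of Lamb1 was Akr1b3 (0.926), and that of Hspg2, the lowest of the 8, was Itm2b (0.889). The 30 sums share 6 libraries, so these values describe mainly how genes separate the classes.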

How the data were processed

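The files were the filtered gene by barcode matrices of 6 libraries. The UMI counts were deposited by the authors as raw whole numbers, per the labels made with the 10x Genomics Chromium 3′ v3.1 chemistry and Cell Ranger on mm10, with R 4.1.1 and Seurat named in the submitters' notes.

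Barcodes needed over 200 genes and had to lie within 3 median absolute deviations of their library's medians for genes, UMIs and mitochondrial share (57326 of 68103). Classed cells had at least 2000 UMIs (53037). Lineages were gated on counts of detected markers. Fibroblasts went to the class with the highest mean marker z-score (at least 0.3, and 0.2 above the next); these thresholds were set after the marker distributions were seen. Barcodes with markers of more than 1 lineage (1743) were left out as likely doublets, and no doublet caller was run. The members, marker lists and pathway lists were chosen with earlier results of these data known. All 8 members were described in 7 classes and, by level only, in immune cells, and list genes were named where they passed the threshold, except for some that are not reported here.

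UMIs were summed per library and class and tested with edgeR 4.0.16 in R 4.3.3: TMM scaling, filterByExpr, glmQLFit and glmQLFTest, Benjamini-Hochberg adjustment over all genes tested, threshold 0.05. Of the 7 classes compared, those with at least 20 cells in every library were tested. Age fits held temperature and left 2 residual degrees of freedom; class and interaction fits held the library as a block. The study tested cells as units, which was not done here. Standard errors are the log2 change divided by the root of F. All 8 members passed the filter on low counts in Dpp4+ fibroblasts and in the joint fits of Dpp4+ and Icam1+ cells. Lama5 did not pass it in the other fibroblast and pericyte fits, nor Lamc3 in the endothelial fit. P-values measure the spread between these 6 libraries, with the spread of each gene drawn towards that of the other genes tested. Alternatives were DESeq2 1.42.0, RLE factors, no filter, each library left out, cells thinned to 2000 UMIs, a fixed cell filter (1000 to 7000 genes, at most 10% mitochondrial UMIs), a stricter gate (0.5), the barcodes with the most UMIs left out (0.8% per 1000 barcodes), and no temperature term or library block. Cells without the limit of 2000 UMIs were added after the data were seen. The fits were tested on simulated counts with 200 changed genes. Python 3.11.15, numpy 2.4.6, scipy 1.17.1 and pandas 2.3.3 were used for sums and permutation tests.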

Additional observations from a re-analysis of the deposited data

Results flagged for a closer look

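The age difference of 2 members differed between fibroblast classes by the edgeR test of the interaction. For Lama2 the interaction was 0.50 (SE 0.0921, adjusted p = 0.0343) in Icam1+ preadipocytes against Dpp4+ fibroblasts and 0.36 (SE 0.0824, adjusted p = 0.0449) in Cd142+ against Dpp4+ fibroblasts. For Lamb2 it was 0.74 (SE 0.144, adjusted p = 0.0437) in Icam1+ preadipocytes against Dpp4+ fibroblasts and 0.64 (SE 0.117, adjusted p = 0.0165) against Cd142+ fibroblasts. All 4 are on the log2 scale, and each compares classes of the same 6 libraries. Each lost its call with 2 or more of the libraries left out in turn. No group held the 4 or more samples that a check for single outlying libraries needs.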

How the results depend on the processing

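No result reversed its direction where it had been called, in any alternative. Among values not called, the 14D change of Lamc3 in Icam1+ preadipocytes turned from -0.30 to 0.08 and passed without the aged 14D library. Of the values for single genes, 1426 kept their side of the threshold and, outside the temperature fits, their direction. Another 63, not called in either fit, changed direction, while 51 lost a call and 52 gained one. Of the counts, 165 stayed within 1.5 times and 57 did not. The cause of these shifts was not tested.

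The number of members past the threshold for age in Dpp4+ fibroblasts was 7 and became 3 without the temperature term, with 5 to 7 when libraries were left out in turn. In Icam1+ preadipocytes it was 2, and became 6 with no filter on low counts, 0 without the temperature term, 5 after thinning and 4 without the barcodes of highest UMI count (0 to 3 with libraries left out). In Cd142+ fibroblasts it was 1, and became 2 with no filter and 0 with DESeq2, without the temperature term or with the stricter gate (0 to 4 with libraries left out). In endothelial cells it was 0, and 1 with RLE factors, with no filter, without the barcodes of highest UMI count or without the limit of 2000 UMIs (0 to 1 with libraries left out). In pericytes it was 0, and 1 after thinning.

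For temperature, 0 became 1 with no filter in Dpp4+ fibroblasts (0 to 1 with libraries left out), 1 with DESeq2, no filter, thinning or without the barcodes of highest UMI count in Icam1+ preadipocytes (0 to 2) and 1 with no filter in Cd142+ fibroblasts (0 to 2). It stayed at 0 in endothelial cells in all 15 alternatives. Of the 7 endothelial members tested, DESeq2 gave only 1 an adjusted p for temperature. The class counts of 6, 6 and 7 stayed within 1.5 times in every alternative and were 5, 5 and 7 without the library block. For the interaction, Icam1+ against Dpp4+ gave 2, and 1 after thinning (0 to 2 with libraries left out). Cd142+ against Dpp4+ gave 1, and 0 with DESeq2, RLE factors, thinning or the stricter gate and 2 with no filter or the fixed cell filter (0 to 1). Icam1+ against Cd142+ gave 1, and 2 with no filter (0 to 2).

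No paired analysis was possible because the labels give no replicate numbers that pair libraries within a group; the age fits compared the ages within each temperature through the temperature term, and the class fits held the library as a block. With 1 library per condition, an interaction of age and temperature could not be tested. Where 1 library was left out of an age fit, the temperature term took up the other library of that temperature. Leaving out the young or the aged library of a temperature therefore took the same pair out of the age estimate. Such removals are not separate checks of single libraries. In a temperature fit, the other library alone stood for its temperature and is assumed to vary like the others. The aged 14D library was the shallowest, and pericyte, smooth muscle and Schwann sums were small, so differences there were detectable only if large.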
